A study of Homo sapiens with 4 samples.

Results

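Small ribosomal subunit processome and maturation factors were followed in Jurkat, a long-established human line derived from T-cell acute lymphoblastic leukemia. The set was a fixed list of 52 genes chosen by their role, with earlier results of these arrays known. Of the 52 genes, 49 had a probe set with that gene symbol among the 21448 probe sets (17687 named genes) of the human Clariom S array. WDR43, NOP56 and WDR46 had none in the platform annotation used here. Each of the 49 genes had 1 such probe set, and none was left out for a dim signal, since no filter was applied and their mean log2 signals lay between 6.03 and 10.45. Cells of the one-round migration group (ORM) had crossed a transwell insert with 3 μm pores within 24 h and were taken from below it (2 arrays), and control cells had not migrated (2 arrays). Both were Jurkat cells, a line kept in RPMI with fetal bovine serum, and carried no named genetic change. In the paper's transwell chemotaxis method, cells were placed above the insert without serum, and serum was only below it. Whether this held for the ORM cells of these arrays is not stated. A part of serum in the differences was not tested. A free-text label goes against the titles and sources, from which the groups were taken: it calls ORM replicate 1 a control, ORM replicate 2 a short 3D culture, and both control arrays cells back in suspension after a longer 3D confinement. The labels describe the control as a suspension culture, and whether its cells were ever placed on an insert is not given in the sources used here. ORM cells are those that crossed, so a response to the passage and a selection of cells able to pass cannot be told apart by this design, nor can a change in all cells and a change in some of them.

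The small subunit of the ribosome is built in the nucleolus around a long precursor RNA that holds the 18S rRNA. A large particle, the small subunit processome, assembles on the 5′ end of this precursor with the U3 small nucleolar RNA, folds and cleaves it, and is then taken apart by helicases and GTPases. The resulting pre-40S particle is exported and trimmed in the cytoplasm by another set of factors, the late maturation factors. Growing cells, leukemia cells among them, need many ribosomes and express these genes broadly.

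The signals are the authors' normalized log2 values, so a difference of 1 means a 2-fold change. The limma fit was run on each probe set for the difference between groups, and the 1.8-fold rule used here asks for a fold change over 1.8 (0.85 on the log2 scale) and an unadjusted p under 0.05, the threshold the study applied. Of all probe sets, 91 were higher and 60 were lower in ORM cells by this rule (60.3% higher, and 74.5% with median centring of the arrays, but 41.1% with control replicate 1 left out, where 415 were higher and 594 lower). None had an adjusted p under 0.05 (lowest 0.428, limma with Benjamini-Hochberg adjustment over all probe sets), while 1268 higher and 1179 lower probe sets had an unadjusted p under 0.05. The p-values cover no more than the spread among these 4 arrays, and 0.333 is the smallest two-sided p that exact permutation of the arrays allows. Control replicate 2 stood apart, with a correlation of 0.979 to 0.982 with the other arrays, against 0.988 to 0.994 among those. The 10 T-cell markers looked at lay above the median signal in every array, with a mean log2 signal of 9.88 and 9.91 in ORM cells and 9.90 and 9.90 in control cells, although CD3D was at 0.52 and CD247 at -0.52 on the log2 scale of the difference (unadjusted p = 0.0167 and 0.0273, limma). The 4 B-cell markers had means of 6.25 and 6.28 in ORM cells and 6.45 and 6.48 in control cells, with MS4A1 at 2.59 to 2.86 over the 4 arrays and CD79A at 9.69 and 9.90 in ORM cells and 10.06 and 10.25 in control cells. PAX5, also a B-cell marker, had 6.15 and 6.17 in ORM cells and 6.67 and 6.67 in control cells (log2 -0.51, unadjusted p = 0.0149, limma). The other marker lists (myeloid, erythroid, and epithelial with fibroblast) had means of 4.7 to 5.5 in ORM cells and 4.7 to 5.6 in control cells. In all arrays, 3 of 4 B-cell, 0 of 5 myeloid, 1 of 3 erythroid and 3 of 7 epithelial and fibroblast markers lay above the array's median. The part of these markers in the results was not tested.

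Of the 49 small subunit factors, 5 rose in ORM cells by the 1.8-fold rule, namely UTP15, UTP20, RIOK1, ESF1 and LTV1, and 0 fell. That is 10.2% of the members, where 0.424% of all probe sets were called higher and 0.280% were called lower. A further 22 members were higher in ORM cells with an unadjusted p under 0.05 and a smaller fold change, which makes 27 of 49, where 5.91% of all probe sets were in that class. None of the 49 was lower with an unadjusted p under 0.05 (5.50% of all probe sets). All members had a mean log2 signal over 5, and of the 11675 named genes at 5 or more, 0.651% were called higher, and 8.87% were higher and 4.47% lower with an unadjusted p under 0.05. No member had an adjusted p under 0.05 over all probe sets (0.428 for the lowest, limma). The log2 fold change had a median of 0.51 over the members and ranged from -0.16 to 1.22, while the median was -0.04 over all probe sets and 0.02 over the named genes at 5 or more. Positive values were found for 46 members (40 with quantile normalization and 47 with centring), and the 3 with negative ones were TBL3, TSR1 and AATF. The lower and upper quartiles of signal were 4.18 and 7.68, and 4.14 and 7.72, in the ORM arrays. In the control arrays they were 4.26 and 7.64, and 4.26 and 7.66. The members were bright, with a median signal of 8.50, against 7.26 for the named genes at 5 or more. The part of this wider range in the differences was not tested. In 37 members (75.5%) both ORM arrays lay above both control arrays, where this held for 21.4% of all probe sets and 29.3% of the named genes at 5 or more. In 0 members both lay below, where this held for 24.2% of all probe sets and 21.5% of the named genes at 5 or more. The members were listed with earlier results of these arrays known, so these counts describe the list and are no independent evidence of its direction.

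**Figure D1:**
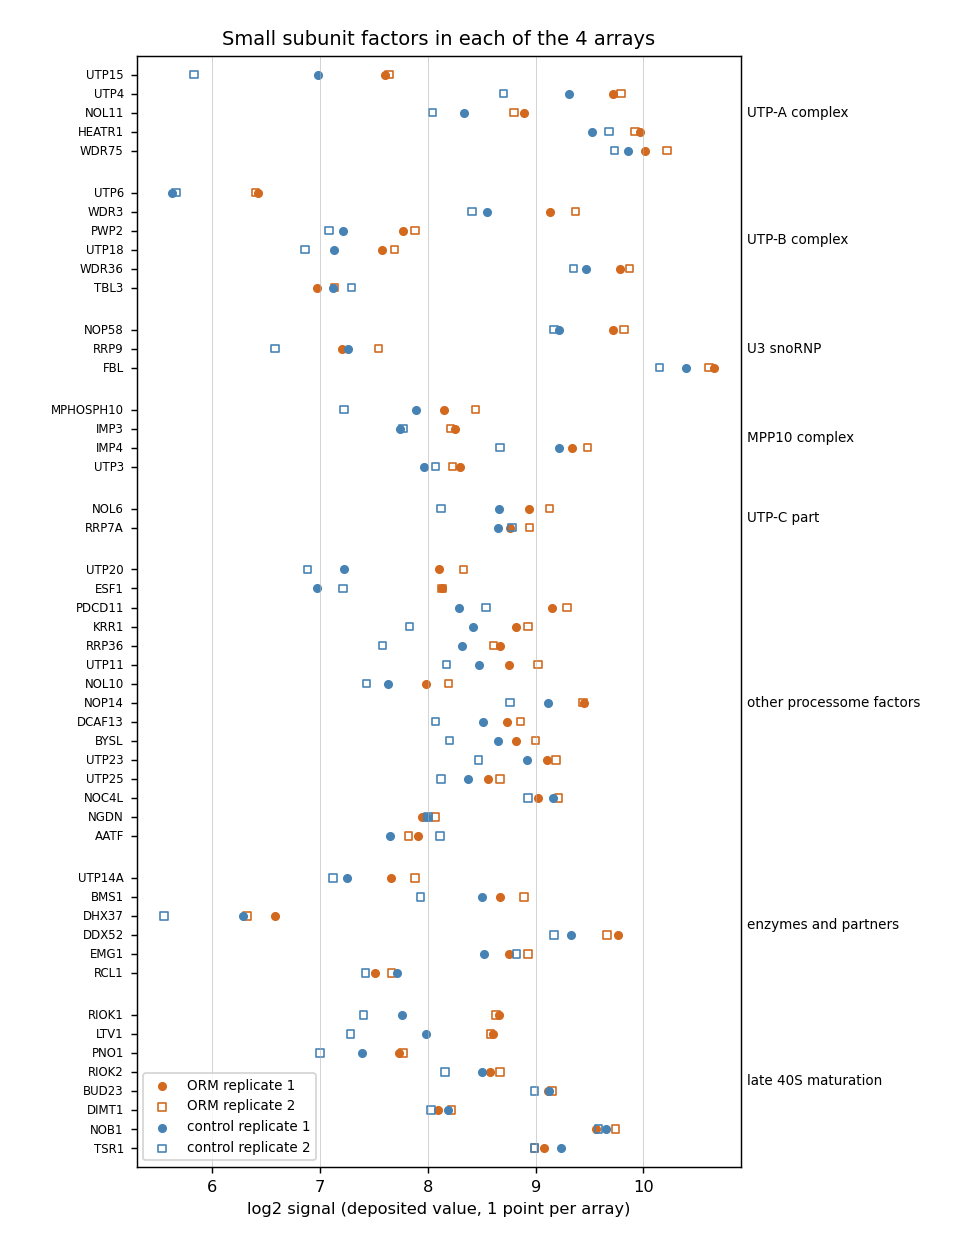
Deposited log2 signal (horizontal axis) of the 49 measured small subunit factors in ORM replicates 1 and 2 and control replicates 1 and 2, grouped by role. Both ORM points lie to the right of both control points for 37 genes, and control replicate 2 is the leftmost point for many of them.

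The UTP-A complex is the first to bind the precursor, at its 5′ external spacer, and in human cells it also supports transcription of the rRNA genes. All 5 measured members had both ORM arrays above both control arrays. This held for 21.4% of all probe sets and 29.3% of the named genes at a mean log2 signal of 5 or more. The median log2 fold change of the 5 was 0.66. By the 1.8-fold rule 1 of them was higher, where 0.424% of all probe sets were called higher. UTP15, a WD-repeat protein of this complex, had log2 signals of 7.60 and 7.64 in ORM cells, against 6.98 and 5.83 in control cells. The ORM arrays were almost the same and the control arrays were far apart, with control replicate 2 the lowest. The fold change was 2.32 (log2 1.22, standard error 0.35, unadjusted p = 0.0124, limma), and it lost the call when control replicate 2 was left out (log2 0.64), as it did without ORM replicate 1 (unadjusted p = 0.0665, limma) or ORM replicate 2 (unadjusted p = 0.0729). UTP4, another WD-repeat subunit, had 9.72 and 9.79 in ORM cells and 9.31 and 8.70 in control cells, and NOL11, a subunit of the human complex, had 8.89 and 8.80 in ORM cells and 8.33 and 8.04 in control cells. Both stayed under the 1.8-fold rule, UTP4 at 0.75 and NOL11 at 0.66 on the log2 scale (standard errors 0.23 and 0.18). HEATR1, the large scaffold of the complex, had 0.35 and WDR75 had the smallest value of the group, 0.32 (95% interval -0.09 to 0.73), with 10.01 and 10.22 in ORM cells and 9.86 and 9.73 in control cells.

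The UTP-B complex is a scaffold made largely, but not only, of WD-repeat proteins that joins the U3 particle to the precursor. Of its 6 members, 0 passed the 1.8-fold rule and 5 were higher with an unadjusted p under 0.05, at log2 fold changes of 0.42 to 0.77. Higher with such a p were 5.91% of all probe sets and 8.87% of the named genes at a mean log2 signal of 5 or more. UTP6 had 6.42 and 6.40 in ORM cells, against 5.62 and 5.66 in control cells. The arrays of each group nearly coincided and the groups were apart, and the difference of 0.77 (standard error 0.16, unadjusted p = 0.00206, limma) was much the same against either control array (0.79 and 0.75). WDR3 had 9.13 and 9.37 in ORM cells and 8.55 and 8.41 in control cells, also a log2 fold change of 0.77. PWP2, UTP18 and WDR36 followed with 0.68, 0.64 and 0.42. TBL3, another WD-repeat subunit, had 6.97 and 7.13 in ORM cells and 7.12 and 7.29 in control cells. Its arrays overlapped, and its log2 fold change of -0.16 (95% interval -0.56 to 0.25) was the lowest of all 49 members.

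Among the proteins of the U3 particle, 3 were measured and 0 passed the 1.8-fold rule. NOP58, a core protein of the box C/D particles that carry the guide RNA, had 9.72 and 9.82 in ORM cells and 9.22 and 9.17 in control cells. The groups did not overlap, and the difference was 0.58 on the log2 scale (standard error 0.16). FBL, the methyltransferase of these particles, had 10.65 and 10.61 in ORM cells and 10.39 and 10.15 in control cells, which is the smallest difference of the group at 0.36 (95% interval -0.05 to 0.77). RRP9, the protein found only in the U3 particle, had a log2 fold change of 0.45, but ORM replicate 1 (7.20) lay below control replicate 1 (7.26).

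The MPP10 complex helps U3 to pair with the precursor. In its 4 members, counting UTP3, both ORM arrays lay above both control arrays, and 0 passed the 1.8-fold rule. Such a separation was found in 21.4% of all probe sets and 29.3% of the named genes at a mean log2 signal of 5 or more. The median log2 fold change of the 4 members was 0.47. MPHOSPH10, the scaffold of the complex, had 8.15 and 8.44 in ORM cells and 7.89 and 7.22 in control cells. The spread between its control arrays was wide, and the log2 fold change was 0.74 with a standard error of 0.26. IMP3, its small RNA-binding partner, had a smaller difference of 0.48 but a narrower spread, with 8.25 and 8.21 in ORM cells and 7.74 and 7.77 in control cells. IMP4 had 0.47 (0.19 against control replicate 1 alone and 0.74 against control replicate 2 alone). UTP3 had the smallest value of 0.25, with 8.30 and 8.23 in ORM cells against 7.96 and 8.07 in control cells. The 95% intervals of IMP4 (-0.07 to 1.00) and UTP3 (-0.13 to 0.63) included 0. Of NOL6 and RRP7A, which bind each other in the processome, NOL6 had 8.94 and 9.13 in ORM cells and 8.66 and 8.12 in control cells, which gave 0.65 (standard error 0.22). RRP7A had 8.76 and 8.94 in ORM cells and 8.65 and 8.78 in control cells, which overlap, with a log2 fold change of 0.14 (95% interval -0.27 to 0.54).

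The other processome factors are single proteins that join the growing particle, and 15 of 16 were measured, without WDR46. Of them 2 rose past the 1.8-fold rule, 7 more were higher with an unadjusted p under 0.05, and the median log2 fold change was 0.51. Of all probe sets, 0.424% were called higher by the rule, and 5.91% were higher with an unadjusted p under 0.05. For the named genes at a mean log2 signal of 5 or more, these shares were 0.651% and 8.87%. UTP20, a very long helical repeat protein needed for 18S rRNA in human cells, had 8.10 and 8.33 in ORM cells, against 7.22 and 6.88 in control cells. The groups were separated by more than the spread within either, at a fold change of 2.24 (log2 1.17, standard error 0.19, unadjusted p = 0.000684, limma), and the difference was 1.00 against control replicate 1 alone and 1.34 against control replicate 2 alone. ESF1, which in yeast acts in 18S rRNA processing, had 8.13 and 8.13 in ORM cells and 6.97 and 7.21 in control cells. Its fold change was 2.06 (log2 1.04, standard error 0.17, unadjusted p = 0.00062, limma), and here control replicate 1 was the lower control array.

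PDCD11, the human counterpart of yeast Rrp5 that acts on the precursors of both subunits, had 9.15 and 9.29 in ORM cells and 8.29 and 8.54 in control cells. It came closest to the rule from below, at a fold change of 1.75 (log2 0.81, standard error 0.17, unadjusted p = 0.00295, limma), and passed it against control replicate 1 alone (log2 0.93) and with median centring of the arrays (log2 0.86). LTV1, described below with the late factors, lay just inside at 1.95-fold. KRR1 and RRP36, which both bind the early particle, reached 0.75 and 0.69 on the log2 scale, with standard errors of 0.23 and 0.26, and in both control replicate 2 was the lower control array, at 7.83 and 7.58 against 8.42 and 8.32 in control replicate 1. The processome proteins UTP11, NOL10, NOP14, DCAF13, UTP23 and UTP25, and BYSL, which stays with the particle into its pre-40S form, ranged from 0.37 to 0.57 with no overlap between groups.

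AATF, NGDN and NOL10 form a complex in human cells and were read together. NOL10 had 7.98 and 8.19 in ORM cells and 7.63 and 7.43 in control cells (log2 0.56, standard error 0.17). AATF, also known for its part in the response to DNA damage, had 7.91 and 7.82 in ORM cells, between the 7.65 and 8.11 of control cells, and a log2 fold change of -0.02 (95% interval -0.50 to 0.47). NGDN had 7.94 and 8.07 in ORM cells and 7.99 and 8.00 in control cells, with a difference of 0.01 (95% interval -0.37 to 0.39). The control arrays of NGDN were within 0.01 of each other, unlike those of most members. NOC4L had 0.07 (95% interval -0.35 to 0.49), whereas its binding partner NOP14 had 0.51.

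Enzymes of the processome and their direct partners gave 6 measured genes, of which 0 passed the 1.8-fold rule. With an unadjusted p under 0.05, 3 of them were higher, as were 5.91% of all probe sets. This share was 8.87% in the named genes at a mean log2 signal of 5 or more. UTP14A, whose yeast counterpart switches on the helicase Dhr1, had 7.66 and 7.88 in ORM cells and 7.25 and 7.12 in control cells, higher in ORM by 0.59 on the log2 scale (standard error 0.17). DHX37, the human form of that helicase, which strips U3 from the precursor, had 6.58 and 6.32 in ORM cells and 6.28 and 5.55 in control cells. ORM replicate 2 and control replicate 1 nearly touched, and the log2 fold change of 0.54 had an interval that included 0 (-0.10 to 1.17). The GTPase BMS1 had 8.67 and 8.89 in ORM cells and 8.50 and 7.93 in control cells, a difference of 0.57 that was 0.28 against control replicate 1 alone and 0.85 against control replicate 2 alone. The helicase DDX52 had 0.46 and the 18S rRNA methyltransferase EMG1 had 0.17. RCL1, the partner of BMS1, had overlapping groups, with 7.51 and 7.66 in ORM cells and 7.71 and 7.42 in control cells, and a log2 fold change of 0.02 (95% interval -0.41 to 0.45).

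The 8 late maturation and modification factors were split between genes with a difference and genes near 0, and their median log2 fold change was 0.19. RIOK1, an atypical kinase that acts on the last cytoplasmic pre-40S particles, had 8.66 and 8.63 in ORM cells, against 7.76 and 7.40 in control cells. Both ORM arrays were above both control arrays by more than the spread within either group, at a fold change of 2.09 (log2 1.07, standard error 0.18, unadjusted p = 0.000897, limma). LTV1, which accompanies the pre-40S particle from the nucleus and must be released for the particle to mature, had 8.60 and 8.58 in ORM cells and 7.98 and 7.28 in control cells. Its fold change was 1.95 (log2 0.96, standard error 0.25, unadjusted p = 0.00716, limma), and like UTP15 it lost the call without control replicate 2 (log2 0.61) or ORM replicate 1 (unadjusted p = 0.0532). PNO1, a partner of the nuclease NOB1, had 7.73 and 7.77 in ORM cells and 7.39 and 7.00 in control cells, which gave 0.56 (standard error 0.19), and RIOK2, a kinase related to RIOK1, had 0.30 (95% interval -0.15 to 0.74).

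The other 4 late factors overlapped between groups and had log2 fold changes of -0.08 to 0.08. NOB1, the nuclease that makes the final 3′ end of 18S rRNA, had 9.56 and 9.74 in ORM cells and 9.65 and 9.58 in control cells (95% interval -0.36 to 0.43). TSR1, a GTPase-like protein that keeps the immature particle from binding its partners, had 9.08 and 8.99 in ORM cells and 9.23 and 8.99 in control cells (95% interval -0.48 to 0.33). DIMT1 and BUD23, which methylate 18S rRNA, had 0.05 and 0.08. Changes within such an interval are not excluded for that gene by these 4 arrays.

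**Figure D2:**
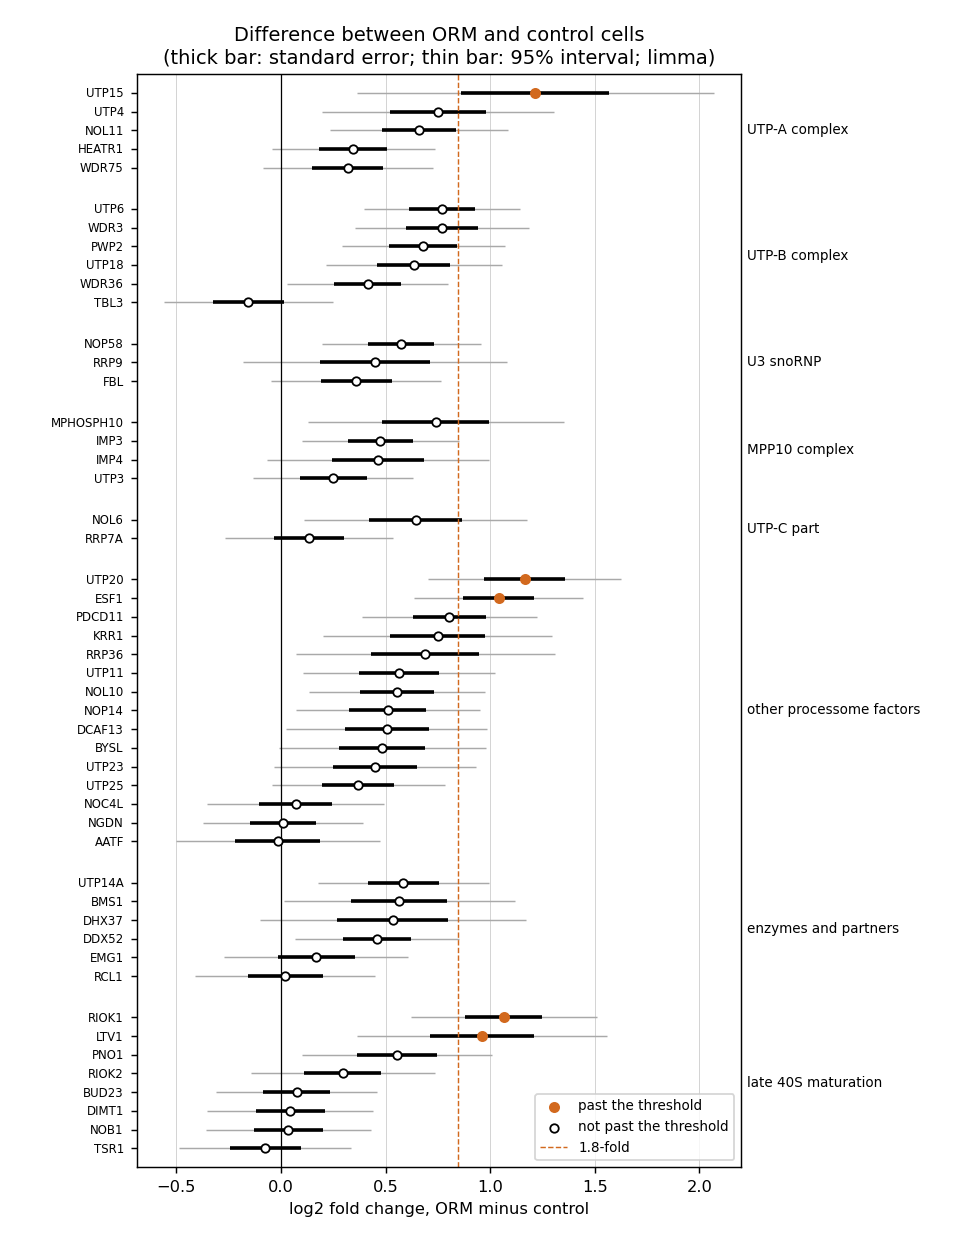
Log2 fold change of ORM minus control cells (horizontal axis) for the 49 measured small subunit factors by role, with the standard error (thick bar) and 95% interval (thin bar) from limma; the dashed line marks 1.8-fold. UTP15, UTP20, ESF1, RIOK1 and LTV1 are past the threshold, and 46 of 49 points lie above 0.

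The control arrays did not give these genes the same level. Over the 49 members, control replicate 2 was below control replicate 1 in 38, with a median log2 difference of -0.24, where the median over all probe sets was -0.01. The ORM arrays differed less, with ORM replicate 2 above ORM replicate 1 by a median of 0.11 (0.01 over all probe sets). The median of the members was 8.67 and 8.80 in ORM replicates 1 and 2, and 8.37 and 8.07 in control replicates 1 and 2. Each control array was therefore also used alone, with both comparisons sharing the same ORM arrays. Against control replicate 1 the mean of the ORM arrays was higher by a median of 0.34, and both ORM arrays lay above it in 40 of 49 members (81.6%), as in 34.8% of all probe sets. Against control replicate 2 the median was 0.68, and both ORM arrays lay above it in 42 members (85.7%), as in 37.9% of all probe sets. The median over all probe sets was -0.03 in either case. The median was thus positive against each control array and larger against control replicate 2. Of the 46 members with a positive log2 fold change, 23 had a value over 1.5 times smaller against control replicate 1 alone, and 12 had one over 1.5 times larger against control replicate 2 alone.

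In the fit with a single control array the lone sample is assumed to vary like the ORM arrays. With control replicate 1 alone, 4 members passed the 1.8-fold rule and were higher (UTP20, ESF1, RIOK1 and PDCD11), and 0 members were lower, while 64 of all probe sets were higher (0.298%) and 36 were lower. With control replicate 2 alone, 12 members passed and were higher, and 0 members were lower, while 415 of all probe sets were higher (1.93%) and 594 were lower. All 5 members called with both control arrays were among these 12, beside UTP4, MPHOSPH10, NOL6, BMS1, DHX37, RRP36 and KRR1. UTP20, ESF1 and RIOK1 were called against either control array, and by the methods' t-test as well. This is Student's t-test, named in the paper's general statistics and run here on each probe set with all 4 arrays. The paper's own array analysis used Transcriptome Analysis Console. The t-test called 3 members in place of 5 and left out UTP15 (unadjusted p = 0.169) and LTV1 (unadjusted p = 0.111).

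**Figure D3:**
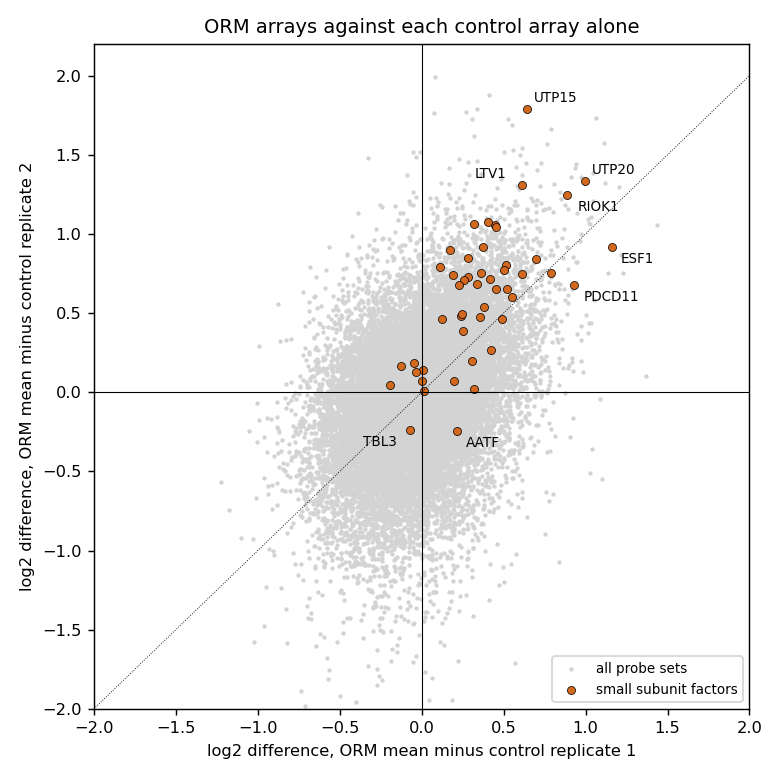
Mean of the ORM arrays minus control replicate 1 (horizontal axis) and minus control replicate 2 (vertical axis), in log2 units, for all probe sets in grey (7 lie outside the plotted range) and the 49 small subunit factors in orange; both axes share the ORM arrays, and the dotted line marks equal differences. Most members lie above 0 on both axes and above the dotted line, while ESF1 and PDCD11 lie below it.

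Promoter sequences were set beside the 5 genes that rose past the 1.8-fold rule, since these are the called members and their start regions can be compared by letter. Sequences are from RefSeq (GRCh38.p14), and each runs 5′ to 3′ on the strand of its gene over 300 bases, 250 before the start of the gene and 50 after it. Capitals mark the E-box CACGTG, which reads the same on both strands and is bound by MYC among other factors, and the ETS core CCGGAAG or its reverse complement CTTCCGG; the motifs do not overlap each other in these windows. AATF is added as a member with both motifs whose ORM values lay between its control values.
UTP20, chr12:101279855-101280154, plus strand: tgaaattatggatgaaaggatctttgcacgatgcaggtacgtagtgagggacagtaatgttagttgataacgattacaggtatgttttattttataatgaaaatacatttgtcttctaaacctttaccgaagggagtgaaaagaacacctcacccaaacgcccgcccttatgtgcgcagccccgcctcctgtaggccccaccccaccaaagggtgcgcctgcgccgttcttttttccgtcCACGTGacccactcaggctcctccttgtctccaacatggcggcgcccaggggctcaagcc
ESF1, chr20:13784870-13785169, minus strand: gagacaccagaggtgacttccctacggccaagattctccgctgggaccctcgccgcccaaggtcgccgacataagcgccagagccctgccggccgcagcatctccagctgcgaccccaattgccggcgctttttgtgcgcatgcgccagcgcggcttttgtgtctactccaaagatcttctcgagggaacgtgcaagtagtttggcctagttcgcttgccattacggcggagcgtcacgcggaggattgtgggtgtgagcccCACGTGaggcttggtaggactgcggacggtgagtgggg
LTV1, chr6:143843088-143843387, plus strand: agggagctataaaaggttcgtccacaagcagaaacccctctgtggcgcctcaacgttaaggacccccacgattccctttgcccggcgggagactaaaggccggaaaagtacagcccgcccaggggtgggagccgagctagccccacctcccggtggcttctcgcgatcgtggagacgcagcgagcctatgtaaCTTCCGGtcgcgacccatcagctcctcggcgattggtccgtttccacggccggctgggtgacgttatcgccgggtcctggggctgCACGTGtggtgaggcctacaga
RIOK1, chr6:7389558-7389857, plus strand: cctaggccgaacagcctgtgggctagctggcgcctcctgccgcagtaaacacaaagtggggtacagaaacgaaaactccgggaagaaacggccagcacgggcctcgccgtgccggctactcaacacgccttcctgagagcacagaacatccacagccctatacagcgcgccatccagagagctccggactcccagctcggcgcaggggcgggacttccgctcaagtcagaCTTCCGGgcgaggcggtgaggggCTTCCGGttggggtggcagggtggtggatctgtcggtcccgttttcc
UTP15, chr5:73565493-73565792, plus strand: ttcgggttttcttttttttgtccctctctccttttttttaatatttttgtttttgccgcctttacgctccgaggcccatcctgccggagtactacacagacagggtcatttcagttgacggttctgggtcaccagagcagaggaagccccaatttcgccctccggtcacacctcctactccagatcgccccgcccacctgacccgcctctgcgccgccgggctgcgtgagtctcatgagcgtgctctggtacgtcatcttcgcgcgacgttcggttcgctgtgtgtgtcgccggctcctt
AATF, chr17:36948704-36949003, plus strand: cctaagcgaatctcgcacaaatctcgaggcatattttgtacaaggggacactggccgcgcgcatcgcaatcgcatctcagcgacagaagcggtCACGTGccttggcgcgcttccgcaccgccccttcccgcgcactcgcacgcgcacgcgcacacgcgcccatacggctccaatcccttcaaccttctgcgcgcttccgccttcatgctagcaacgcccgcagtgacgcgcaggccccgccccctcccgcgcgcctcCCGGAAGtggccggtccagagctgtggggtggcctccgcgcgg

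UTP20, ESF1 and LTV1 held 1 E-box each within 28 bases of the gene's start, at 10 bases before it in UTP20 and at 12 and 28 bases after it in ESF1 and LTV1. RIOK1 held the ETS core at 2 places and LTV1 at 1, on the minus strand of the window, and UTP15 held neither motif. In AATF the E-box lay 157 bases before the start. Positions in the other members with an E-box are not given here, so distance was not compared with the call. Of the 52 listed genes, 46 had a window in the RefSeq table (47 windows, with 2 for IMP4), and DCAF13, DDX52, MPHOSPH10, NOL10, NOP58 and UTP23 had none. The E-box was in 20 of the 47 windows (42.6%), as in 7.26% of all 35116 windows and 8.21% of the 20090 windows of genes named on the array. The ETS core was in 19 windows (40.4%), as in 10.3% of all windows and 12.8% of those of genes named on the array. In the 43 measured members with a window, the median log2 fold change was 0.55 for the 18 genes with an E-box and 0.35 for the 25 without, and the ranges overlapped (-0.02 to 1.17 with, -0.16 to 1.22 without). For the ETS core it was 0.59 for 18 genes with and 0.48 for 25 without. A match of letters shows neither binding nor a cause, and genes are not replicates, so no test was made.

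Other genes of ribosome production were read beside the members, from lists written by role with earlier results of these arrays known. Of 24 other small subunit factors, 20 were measured and 0 passed the 1.8-fold rule, with a median log2 fold change of 0.18. The acetyltransferase NAT10, which acts on 18S rRNA, had 9.71 and 9.85 in ORM cells and 9.25 and 9.51 in control cells (log2 0.40), and NOL7 had 8.71 and 8.75 in ORM cells and 8.25 and 8.32 in control cells (log2 0.45, unadjusted p = 0.0272, limma). Neither overlapped between groups. In 8 of the 20 genes (40%) both ORM arrays lay above both control arrays. This held for 21.4% of all probe sets and 29.3% of the named genes at a mean log2 signal of 5 or more. The nuclear exosome, which trims precursor RNA, had a median of 0.13 over 12 genes, with 0 past the rule, and its nuclease gene DIS3 had 9.16 and 9.19 in ORM cells and 8.77 and 8.58 in control cells, while the helicase gene MTREX had 8.85 and 8.82 in ORM cells and 8.56 and 8.32 in control cells. The H/ACA particle and the assembly factors of both kinds of particle had a median of 0.25 over 12 genes, with 0 past the rule. ZNHIT6 and GAR1 had the smallest p-values, at log2 fold changes of 0.75 and 0.73. In 6 of the 12 (50%) both ORM arrays lay above both control arrays. In 2 (16.7%) both lay below, namely the H/ACA proteins NHP2 (log2 -0.25) and NOP10 (log2 -0.33), where this held for 24.2% of all probe sets.

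Assembly factors of the large subunit had a median log2 fold change of 0.42 over 30 measured genes. By the 1.8-fold rule 3 (10%) were higher (RBM28, DDX27 and NOC3L) and 0 lower, where 0.424% of all probe sets were called higher. In 26 (86.7%) both ORM arrays lay above both control arrays. This held for 21.4% of all probe sets and 29.3% of the named genes at 5 or more. RBM28 had 7.83 and 8.01 in ORM cells and 6.95 and 6.56 in control cells. NOC3L had 7.71 and 8.31 in ORM cells and 7.04 and 7.01 in control cells, and DDX27 had 8.02 and 8.28 in ORM cells and 7.54 and 6.78 in control cells. For the genes of the small subunit's own ribosomal proteins, over 19 measured genes of 31 listed, 0 passed the rule and the median was -0.12. Both ORM arrays lay above both control arrays in 2 of these genes (10.5%) and below both in 8 (42.1%). Both lay below in 24.2% of all probe sets and 21.5% of the named genes at 5 or more. For these ribosomal protein genes the ORM arrays were above control replicate 1 by a median of 0.05. Their median difference from control replicate 2 was -0.29, and control replicate 2 was the lower control array in 0 of the 19. RPS12 had 10.46 and 10.50 in ORM cells and 9.86 and 10.28 in control cells, and RPS26 had 10.45 and 10.45 in ORM cells and 10.56 and 11.25 in control cells. Ribosomal protein genes have many near-identical pseudogene copies, which makes their array signals less certain. Differences between these lists were not tested.

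**Figure D4:**
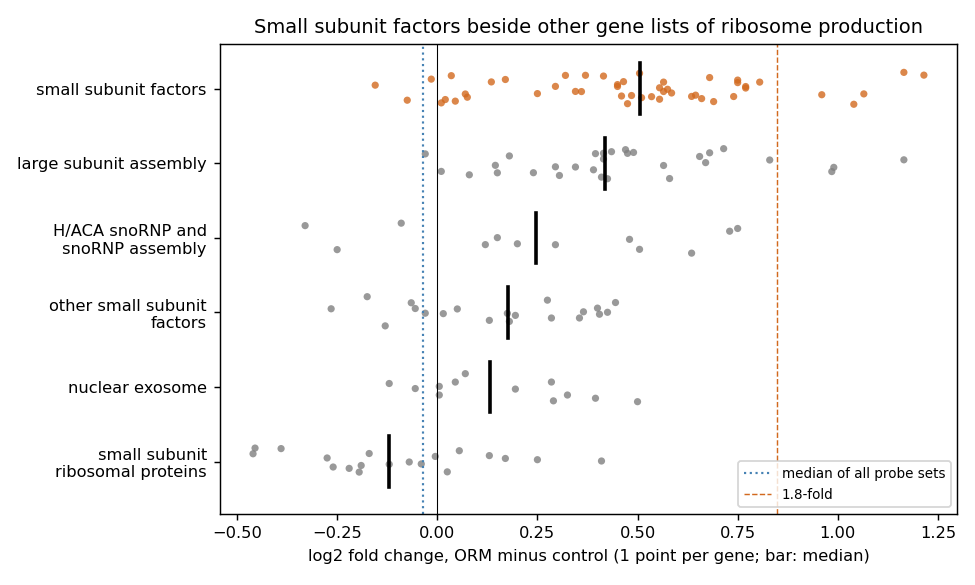
Log2 fold change of ORM minus control cells (horizontal axis), 1 point per gene and a bar at the median, for the 49 small subunit factors and 5 other lists of ribosome production; points are spread vertically for sight only. The medians are 0.51 for the small subunit factors, 0.42 for large subunit assembly factors and -0.12 for small subunit ribosomal proteins.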

How the data were processed

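The human Clariom S arrays (1 colour) of 2 ORM and 2 control samples were used as deposited: the authors' values are normalized log2 signals per probe set, made with RMA and Transcriptome Analysis Console according to the submitters' processing notes, which give no version. Scanner files were not used here. Arrays were assigned by title, because a free-text label names other treatments. The labels call the replicates biological. Of 21448 probe sets, 17709 had 1 gene symbol in the platform annotation, 0 had several and 3739 were not listed there; all 49 measured members matched the gene identifiers of RefSeq (GRCh38.p14). The probe set with the highest mean stood for a gene. limma 3.58.1 in R 4.3.3 (lmFit, eBayes, all probe sets, no filter) gave fold changes, standard errors, intervals and p-values, with Benjamini-Hochberg adjustment; its shared variance makes errors smaller than a gene's own spread where that is wide. The script was tested on simulated data. All members could be named, with every array given for those past the 1.8-fold rule and for the largest and smallest change in each role group; of other lists, members past the rule, or the 2 with the smallest p, were named. BMS1, IMP3, NOL11, PNO1, PDCD11, UTP4, UTP6, NOL10, NGDN, DHX37 and NOB1 were given per array after their values were seen. NHP2 and NOP10 were also named after their values were seen. Members and lists were chosen with earlier results of these data known. Alternatives were quantile normalization, median centring, a filter at a mean log2 signal of 5, the methods' t-test, limma with trend and robust settings, a replicate block, other thresholds, the mean of a gene's probe sets and each array left out. Same-numbered arrays did not deviate together (r = 0.0929 over all probe sets), and the main fit used no pairing. With 1 difference per group, this r cannot show whether the replicates were prepared in pairs. The number of arrays limits the precision.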

Additional observations from a re-analysis of the deposited data

How the results depend on the processing

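The median log2 fold change of the 49 members was 0.42 with quantile normalization and 0.56 with centring, and 0.34 to 0.68 when 1 array was left out, lowest without control replicate 2. Leaving out 1 array gave 4 to 12 members past the threshold and higher, 0 lower, and 100 to 1009 probe sets in all, both ends set by the control arrays (235 without ORM replicate 1). The remaining ORM array lay above both control arrays in 45 members without ORM replicate 1 (31.1% of all probe sets) and in 37 without ORM replicate 2 (30.1%), and both ORM arrays lay above the remaining control array in 42 members without control replicate 1 and 40 without control replicate 2. UTP15 lost the call without either ORM array or without control replicate 2, and LTV1 without ORM replicate 1 or control replicate 2. With the methods' t-test 49 probe sets and 3 members passed; with a fold change over 1.5, 941 and 17; with a fold change over 2, 68 and 4; with an unadjusted p under 0.01, 101 and 4; and with an adjusted p under 0.05, 0 and 0 (limma; 1268 higher and 1179 lower probe sets and 27 members had an unadjusted p under 0.05). With the replicate number as a block, 162 probe sets and 5 members passed, and no member's call changed. Genes near 0 changed sign. With quantile normalization RCL1 was at -0.024, NOB1 at -0.064, DIMT1 at -0.035, BUD23 at -0.034, NOC4L at -0.031 and NGDN at -0.058, and with centring AATF was at 0.038. Leaving out 1 array gave -0.125 to 0.165 for RCL1, -0.055 to 0.125 for NOB1, -0.035 to 0.125 for DIMT1, -0.045 to 0.185 for NOC4L, -0.245 to 0.215 for AATF, -0.055 to 0.075 for NGDN and -0.195 to 0.045 for TSR1. The cause of these changes was not tested. The mean of a gene's probe sets gave the same values, since each member had 1.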
